A study of Mus musculus with 3 samples.

Results

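Transcripts of 9 genes of fructose use and gluconeogenesis were examined in intestinal epithelial cells (IEC) taken from mouse organoids that had been cultured with type 3 innate lymphoid cells (ILC3). The genes were chosen by name, as 8 enzymes and 1 transcription factor, and all 9 were found among the 35824 genes of the count table. They are Khk, Tkfc, Gpi1, Pfkl, Pklr, Pck1, Fbp1, G6pc and Mlxipl. The data are 3 bulk RNA-seq libraries of 1 condition (IEC + ILC3), called A, B and C, with 17946361, 23142849 and 28913885 counts. Small intestinal organoids (SIO), which are crypt-derived epithelium grown in Matrigel, came from female CD45.1 C57BL/6 mice of 6 to 8 weeks. They were kept for 4 days with ILC3 sorted from the small intestine of GFP reporter mice, in ENR medium with β-mercaptoethanol, IL-2, IL-7 and IL-15, and IEC were then isolated by FACS. No organoids cultured without ILC3 are analysed here, so none of the values below measures an effect of ILC3. The labels place A and B in the study's final analysis and C outside it, and values are therefore given for each library, with and without C.

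Fructose enters the enterocyte from the lumen and is phosphorylated by ketohexokinase, the product of Khk, then split into triose units, of which glyceraldehyde is phosphorylated by triokinase (Tkfc). These triose phosphates can be oxidized through the later steps of glycolysis or carried back up to glucose through fructose bisphosphatase, glucose-6-phosphate isomerase and glucose-6-phosphatase, and the small intestine is known, with the liver and kidney, as a tissue able to run these steps. Mlxipl encodes ChREBP, a factor activated by sugar phosphates that binds with its partner Mlx to carbohydrate response elements in genes of fructolysis, glycolysis and lipid synthesis.

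The promoter sequences below show where the letters of such elements stand, since liver pyruvate kinase and ketohexokinase are textbook genes of this response. All 9 genes had at least 1 window in the RefSeq promoter set (GRCm38.p6), and 11 windows of 300 bases were searched on both strands, each with 250 bases before and 50 after a transcription start. The E-box, CACGTG, was present in 2 of the 11 windows, against 7.15% of all 32851 promoter windows. A pair of sites spaced as in a carbohydrate response element, CACGNNNNNNNNNCGTG, were present in 1 of the 11, against 0.280% of all windows. No window held both. Capitals mark the match, and each line gives the 250 bases before the start, 5′ to 3′, on the plus strand. The Khk line is chr5:30921309-30921558, with its E-box beginning 71 bases before the start. The Pklr line is chr3:89136373-89136622, upstream of the downstream, liver-type start, and its paired sites run from 170 to 154 bases before that start. The Mlxipl line is chr5:135089640-135089889, upstream of the first of its starts, with an E-box beginning 98 bases before it.
Khk: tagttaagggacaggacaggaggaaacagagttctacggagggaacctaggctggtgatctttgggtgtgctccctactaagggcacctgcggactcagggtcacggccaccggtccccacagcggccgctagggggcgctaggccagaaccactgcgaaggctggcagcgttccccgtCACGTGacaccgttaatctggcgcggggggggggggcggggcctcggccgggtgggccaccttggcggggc
Pklr: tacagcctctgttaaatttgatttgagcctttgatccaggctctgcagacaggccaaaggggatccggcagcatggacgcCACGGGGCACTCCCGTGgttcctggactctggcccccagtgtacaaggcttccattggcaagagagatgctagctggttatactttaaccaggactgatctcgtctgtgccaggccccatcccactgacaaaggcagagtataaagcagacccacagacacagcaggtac
Mlxipl: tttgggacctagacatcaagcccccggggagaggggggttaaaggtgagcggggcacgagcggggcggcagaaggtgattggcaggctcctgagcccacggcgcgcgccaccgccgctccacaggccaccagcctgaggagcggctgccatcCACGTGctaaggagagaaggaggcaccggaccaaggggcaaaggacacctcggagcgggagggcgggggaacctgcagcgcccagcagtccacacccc
The other 8 windows, those of Tkfc, Fbp1, G6pc, Pck1, Gpi1 and Pfkl and the second windows of Pklr and Mlxipl, held neither set of letters. A match is a run of letters only, and binding was not measured.

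The libraries were epithelial by their markers. Summed pan-epithelial markers, among them Epcam, were 11460, 12173 and 13215 CPM (counts relative to library size, adjusted with TMM factors) in A, B and C. The 10 ILC3 and lymphocyte genes summed to 45.6, 37.5 and 33.0 CPM. The pan-leukocyte marker Ptprc had 1 count in A and 0 in B and C, and 6 of the 10 were at 0 in all libraries. Liver and kidney express the same enzymes. All 4 kidney tubule markers were at 0 in every library. The 6 hepatocyte genes summed to 849, 875 and 1018 CPM, of which Cps1, also a gene of enterocytes, made up 834, 862 and 1003 CPM and Ttr 14.6, 12.2 and 15.5 CPM, and Alb was at 0. Mitochondrially encoded genes took 2.39% to 2.74% of counts.

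Fructose-metabolizing and glycolytic members were expressed strongly and the gluconeogenic members weakly. Compared per kilobase of transcript, since levels of different genes are comparable only per length, Gpi1 was highest at 308 ± 131 CPM per kilobase (SD, n = 3 libraries). Pfkl followed at 124 ± 12.5, Khk at 116 ± 23.4, Tkfc at 82.1 ± 31.4, Pklr at 52.2 ± 18.7 and Mlxipl at 28.5 ± 6.89 CPM per kilobase. The lowest were Fbp1 at 9.02 ± 1.39, G6pc at 4.00 ± 3.76 and Pck1 at 1.76 ± 1.06 CPM per kilobase. Between neighbours in this order, the ranges over the 3 libraries were apart for Gpi1 and Pfkl, for Pklr and Mlxipl, and for Mlxipl and Fbp1. They overlapped for Pfkl and Khk, Khk and Tkfc, Tkfc and Pklr, Fbp1 and G6pc, and G6pc and Pck1. With A and B alone, the means of G6pc and Pck1 were 6.00 ± 2.09 and 2.36 ± 0.29 CPM per kilobase (SD, n = 2), and the order of the 9 means was unchanged. The order depended on the transcript length used. With the median length of coding transcripts Gpi1 came to 1529 and Mlxipl to 140.02 CPM per kilobase, and Mlxipl then stood above Tkfc and Pklr. With the union of exons Gpi1 came to 138 CPM per kilobase and overlapped Khk, which was the higher in C.

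**Figure D1:**
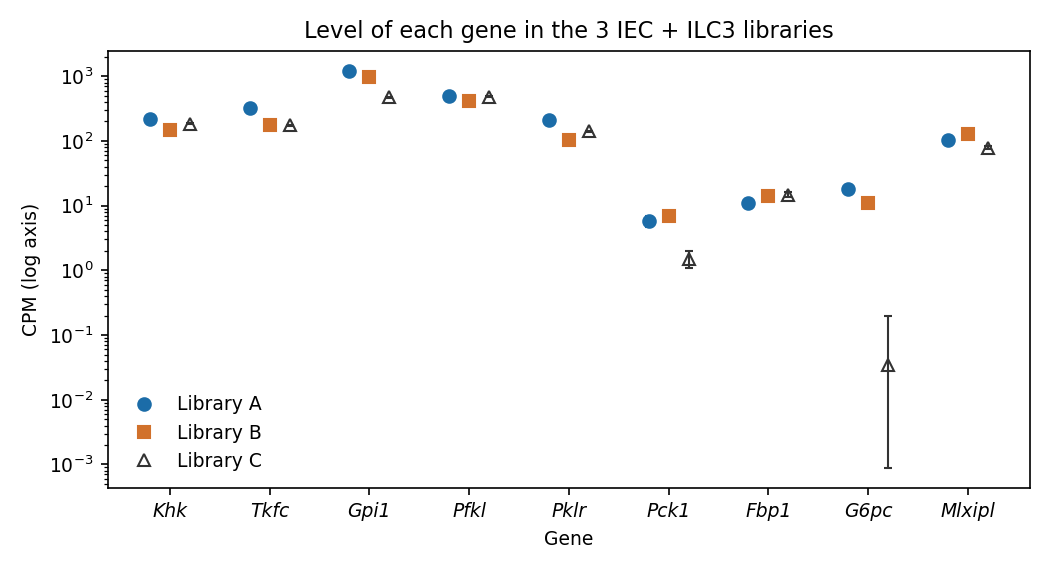
Level of the 9 genes in libraries A, B and C, in CPM on a log axis, with exact 95% Poisson intervals as bars, which cover counting error only and are mostly smaller than the symbols. Levels lie within a narrow band for Khk, Pfkl and Fbp1, while the G6pc point of C, at 1 count, is far below those of A and B.

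Khk, which commits fructose to metabolism, was measured at 219, 145 and 186 CPM in A, B and C. Library C lay between the other libraries, and its log2 fold change against A and B was 0.03 ± 0.33 (standard error), with an adjusted p of 0.969 by edgeR's quasi-likelihood test with Benjamini-Hochberg adjustment over 13604 genes. This fit compares 1 library with a pair, leaves 1 residual degree of freedom, takes C to vary like A and B, and describes these libraries rather than a condition. Tkfc, whose product phosphorylates glyceraldehyde, was at 326, 178 and 175 CPM, highest in A and alike in B and C (log2 fold change of C −0.53 ± 0.39, adjusted p 0.439 by the edgeR test). Exons of Tkfc overlap those of Ddb1 and Cyb561a3 on the opposite strand, Ddb1 had 8923, 12626 and 9426 counts, and the library kit does not mark strand, so reads of the overlap cannot be told apart. Tkfc is at chr19:10587791-10605654 on the minus strand and Khk at chr5:30921431-30931248 on the plus strand (GRCm38).

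Slc2a5 and Slc2a2, both carriers of fructose, were highest in A. Slc2a5, the apical fructose carrier GLUT5, was at 106, 51.5 and 50.8 CPM. Library B was therefore lower than A for Slc2a5, Tkfc and Khk, by 1.03, 0.87 and 0.59 on the log2 scale with 1 CPM added, with no test for 1 library against 1. Slc2a2, the hexose carrier GLUT2, was at 16.1, 8.44 and 2.93 CPM, with C below both others (log2 fold change −2.06 ± 0.69, adjusted p 0.142 by edgeR, not past the threshold of 0.1). Of the 15 genes of fructose uptake and fructolysis, 13 were tested, and their median log2 fold change in C was −0.37 beside −0.10 over all genes tested. Library C was below both others for 11 of the 13 and above both for 0, against 41.2% and 37.3% of all genes tested. The list was not tested as a set. Aldh1b1 and Adh5, among the 3 most abundant of the list per length, were at 645, 675 and 575 CPM and at 241, 235 and 220 CPM. Glyctk, glycerate kinase, had 59, 76 and 2 counts (46.9-fold lower in C, counting interval 12.7 to 391, adjusted p 0.115 by edgeR).

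Gpi1 and Pfkl stand on either side of fructose-6-phosphate. Gpi1 interconverts it with glucose-6-phosphate in both glycolysis and gluconeogenesis, and was at 1205, 990 and 470 CPM. Library C was below both others and 2.34-fold below their mean of 1098 ± 152 CPM (SD, n = 2). The log2 fold change of −1.22 ± 0.31 passed the threshold with an adjusted p of 0.0871 by the edgeR quasi-likelihood test with Benjamini-Hochberg adjustment. It no longer passed at a stricter threshold of 0.05, or once a trend on GC content was removed (log2 fold change −1.08, adjusted p 0.109 by edgeR). Pfkl, the liver-type subunit of the phosphofructokinase that commits hexose to glycolysis, was the steadiest of the 9 at 497, 409 and 479 CPM, a coefficient of variation of 10.1% (log2 fold change of C 0.08 ± 0.29, adjusted p 0.898 by edgeR). Gpi1 is at chr7:34201330-34230336 and Pfkl at chr10:77986947-78010083, both on the minus strand.

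Pklr, the liver and red cell pyruvate kinase, was at 210, 103 and 140.5 CPM. Library A was 2.04-fold above B, the widest gap between these libraries among the 9 genes, and C lay between (log2 fold change −0.16 ± 0.42, adjusted p 0.852 by edgeR). Pklr is at chr3:89136142-89146784 on the plus strand and overlaps Hcn3, which had only 7, 38 and 28 counts.

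The gluconeogenic members differed in how C compared with the other libraries. Pck1, the cytosolic phosphoenolpyruvate carboxykinase, was at 5.74, 6.84 and 1.5 CPM, from 104, 158 and 43 counts. Library C was lowest, outside the counting intervals of A and B, but the difference did not pass the test (log2 fold change −2.06 ± 0.87, adjusted p 0.211 by edgeR). Fbp1, the liver fructose bisphosphatase, was at 11.0, 14.2 and 14.8 CPM, the only one of the 9 with C above both others, and C and B had overlapping counting intervals (log2 fold change 0.23 ± 0.48, adjusted p 0.808 by edgeR). Pck1 is at chr2:173153048-173159273 on the plus strand and Fbp1 at chr13:62864753-62888282 on the minus strand.

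G6pc, the catalytic subunit that releases glucose from glucose-6-phosphate in liver, kidney and gut, had 327, 252 and 1 counts. These were 18.04, 10.9 and 0.0349 CPM, so it was plainly detected in A and B and nearly absent from C. Library C had the most counts but the fewest genes with 10 or more counts, 11986 against 12549 in A and 12964 in B. Whether lower detection of genes in C has a part in the G6pc value was not tested. The level in C was 403-fold lower than in A and B together, with a counting interval of 72.0 to 15927-fold. By the edgeR quasi-likelihood test the adjusted p was 0.0155, and the fitted log2 fold change of −8.49 ± 1.05 depends on the prior count at such low numbers. Of the 9 genes, 2 (G6pc and Gpi1) were thus lower in C and 0 higher. The DESeq2 fit gave log2 fold changes of −8.69 for G6pc and −1.22 for Gpi1. The ± 1.05 given for G6pc was derived from the edgeR test statistic. It is narrower than the counting interval from 1 count and understates the error of this fold change. Over all 13604 genes tested, 5.23% were lower and 1.37% higher, 6.6% in either direction. Without a test, C was below both A and B for 5 of the 9 genes, against 41.2% of all genes tested, and above both for 1, against 37.3%. G6pc is at chr11:101367561-101377903 on the plus strand.

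Markers of cell types also differed between C and the other libraries. Over all genes tested, 41.2% were below both others in C and 37.3% above both. Goblet markers summed to 2309, 2851 and 1550 CPM, with 5 of 7 below both others in C and 1 above both. Their median log2 fold change was −1.64. The 4 tuft markers summed to 22.8 and 41.2 CPM in A and B and to 0 in C, Dclk1, Trpm5 and Pou2f3 included. Enterocyte markers summed to 7761, 5380 and 6531 CPM, which places C between A and B. Summed per kilobase they came to 4603, 3217 and 5195, which places C above both. Of 19 tested, 8 were below both others in C and 4 above both. Among them the log2 fold changes were 1.06 for Fabp1, −1.17 for Sis and −1.43 for Npc1l1. Paneth markers summed to 13063, 17416 and 19845 CPM, with 5 of 7 above both others in C and 1 below both. The log2 fold changes of Mptx2 and Itln1 were 0.95 and 0.77. All 4 enteroendocrine markers were below both others in C, with sums of 661, 716 and 606 CPM and a median log2 fold change of −0.87. In bulk libraries fewer cells of a type and less RNA per cell cannot be told apart, and the part of cell composition in the values of G6pc and Gpi1 was not tested.

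**Figure D2:**
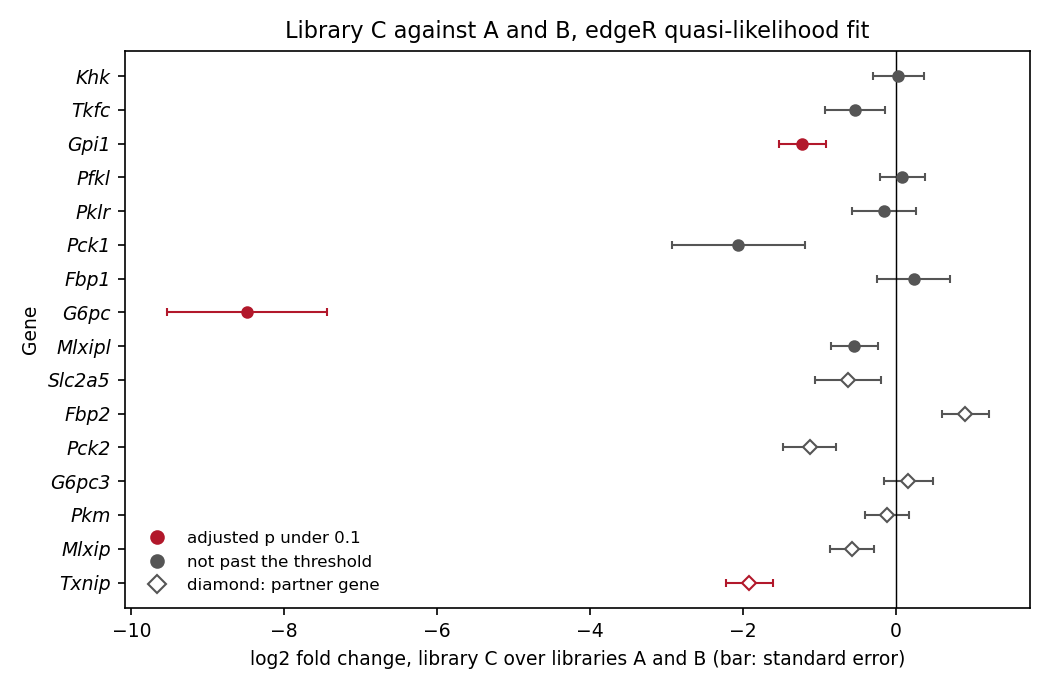
Log2 fold change of library C over libraries A and B from the edgeR quasi-likelihood fit, for the 9 genes (circles) and 7 partner genes (open diamonds). Bars are standard errors derived from the test statistic, and for G6pc the bar is narrower than its counting interval. Red marks an adjusted p under 0.1, reached by Gpi1, G6pc and the partner Txnip, all to the left of 0.

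By transcript, each gluconeogenic member was the minor form of its step, and enzyme activity was not measured. Shares were computed per kilobase within each group of isoenzymes. Fbp1 held 4.32% ± 1.71 of fructose bisphosphatase transcript (SD, n = 3), from 3.04% in C to 6.27% in B, and the remainder was Fbp2, the muscle-type gene that lies beside it on chromosome 13. Fbp2 was at 266, 195 and 432 CPM, highest in C (log2 fold change 0.91 ± 0.30). Its adjusted p was 0.1403 by edgeR, not past the threshold, while the DESeq2 Wald test called it higher in C. Pck1 held 9.05% ± 2.99 of phosphoenolpyruvate carboxykinase transcript, from 5.78% in C to 11.7% in A, and Pck2, the mitochondrial form, held the rest at 75.6, 110.5 and 42.5 CPM (log2 fold change −1.13, adjusted p 0.120 by edgeR, called lower by the DESeq2 Wald test).

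For glucose-6-phosphatase the share of G6pc was 25.3% in A, 15.6% in B and 0.0558% in C. G6pc3, the broadly expressed form, was nearly level at 34.7, 38.3 and 40.7 CPM (log2 fold change 0.16, adjusted p 0.799 by edgeR), and G6pc2, the islet form, was at 0 in all libraries. Because G6pc3 made up most of the step, its summed transcript was 29.5, 28.9 and 25.9 CPM per kilobase. Slc37a4, the carrier that delivers glucose-6-phosphate to the enzyme in the endoplasmic reticulum, was at 80.0, 64.6 and 44.8 CPM, lowest in C but not past the test.

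On the glycolytic side, Pfkl was the major phosphofructokinase at 59.9% ± 4.27, with Pfkp at 37.4% and Pfkm at 2.63%. Pklr held 4.41% ± 1.16 of pyruvate kinase transcript, and the rest was Pkm at 2989, 2578 and 2561 CPM. The hexokinase step was led by Hkdc1, a hexokinase-like gene, at 75.7% ± 9.24, from 65.2% in B to 82.6% in C. Hk2 held 13.1% and Hk1 9.28%, and Hk3 was at 0 in all libraries.

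**Figure D3:**
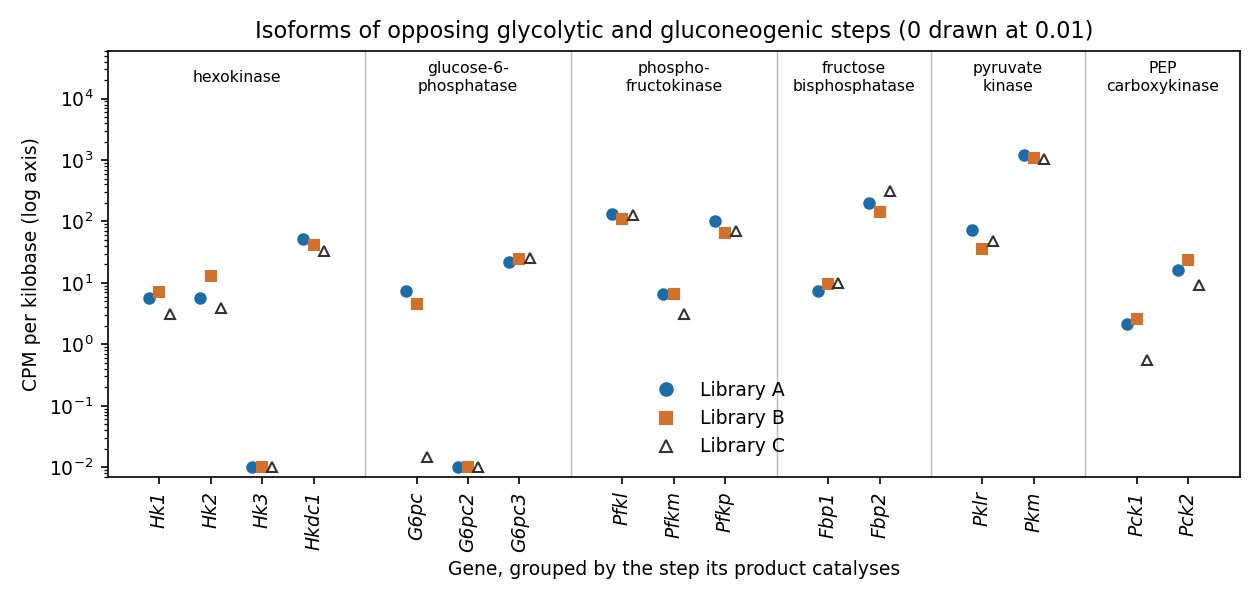
CPM per kilobase, on a log axis, of isoenzymes of 6 steps in libraries A, B and C, with values of 0 drawn at 0.01. Fbp2, Pck2, G6pc3 and Pkm lie above Fbp1, Pck1, G6pc and Pklr in every library, while Pfkl lies above Pfkp.

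Transcript of opposing enzymes was then set side by side, a summary chosen after the values had been seen. Summed phosphofructokinases stood at 1.18, 1.18 and 0.609 times the fructose bisphosphatases per kilobase in A, B and C, so A and B were alike and in C the bisphosphatases, that is Fbp2, were in excess. Pyruvate kinases exceeded phosphoenolpyruvate carboxykinases by 70.4, 41.4 and 113-fold. Hexokinases exceeded glucose-6-phosphatases by 2.19, 2.17 and 1.56-fold. The mean ratios were 0.991 ± 0.331, 74.9 ± 36.0 and 1.97 ± 0.361 (SD, n = 3), and they are ratios of transcript, not of flux.

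Mlxipl, encoding ChREBP, was at 102, 129 and 78.8 CPM in A, B and C. Library C was lowest, with a log2 fold change of −0.55 ± 0.31 and an adjusted p of 0.318 by edgeR. Its partner Mlx was at 156, 99.1 and 144 CPM and its paralog Mlxip (MondoA) at 178, 176 and 119 CPM, and Mlxipl held 56.8% ± 3.10 of the Mlxipl and Mlxip transcript per kilobase. Mlxipl is at chr5:135089890-135138382 on the plus strand.

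Of the 19 genes listed as ChREBP, its partners and known targets, 16 were tested. Library C was below both others for 12 of them and above both for 1 (41.2% and 37.3% over all genes). The median log2 fold change was −0.77 beside −0.10 for all genes. Khk and Pklr, named above as genes of this response, are not in the list. Their log2 fold changes in C were 0.03 and −0.16. Txnip, an arrestin-like inhibitor of glucose uptake, was at 372, 376 and 98.9 CPM, nearly equal in A and B (log2 fold change −1.92 ± 0.31, adjusted p 0.029 by edgeR). Its relative Arrdc4 was at 141, 115 and 52.7 CPM (adjusted p 0.078 by edgeR). Ppp1r3b, a subunit that targets protein phosphatase 1 to glycogen, was at 17.1, 22.8 and 0.802 CPM (log2 fold change −4.63, adjusted p 0.021 by edgeR). Of the lipogenic targets, Scd1, Scd2 and Me1 had log2 fold changes of −0.97, −0.96 and −1.11 in C. Those of Acly, Fasn, Acaca and Elovl6 were −0.21, −0.42, 0.45 and 0.11. Tm6sf2, the most abundant of the list per length, was at 303, 213 and 270 CPM, and Scd2 at 752, 957 and 441 CPM.

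The other lists differed in how C stood beside A and B. In gluconeogenesis 11 of 21 tested genes were below both others in C and 7 above both (41.2% and 37.3% over all genes). The median log2 fold change was −0.20, and G6pc itself was at −8.49. Ldha, Mdh2 and Mdh1 led this list per length, and pyruvate carboxylase (Pcx), its first step from pyruvate, was at 70.5, 45.4 and 36.9 CPM. In glycolysis 15 of 22 were below both others in C, among them Gpi1, Gapdh and Eno3, and 0 above both, with a median of −0.51. Gapdh was at 2890, 2799 and 1220 CPM (log2 fold change −1.22, adjusted p 0.078 by edgeR), and Eno3, the muscle enolase, had 129, 74 and 0 counts. The abundant Eno1 and Pkm had log2 fold changes of 0.05 and −0.12.

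Among regulators, genes differed in both directions. Of 10 tested genes that set fructose-2,6-bisphosphate or the pyruvate dehydrogenase step, 4 were below both others in C and 2 above both (41.2% and 37.3% over all genes). Pdp2, a pyruvate dehydrogenase phosphatase, was at 17.3, 16.2 and 45.3 CPM (log2 fold change 1.44). Pdk1, a pyruvate dehydrogenase kinase, was at 184, 141 and 88.5 CPM (log2 fold change −0.88). Pfkfb3, which makes fructose-2,6-bisphosphate, was at 37.6, 57.2 and 48.6 CPM. Of 14 tested transcription factors of gluconeogenic genes, 6 were below both others in C and 5 above both. Foxo1, an activator of G6pc and Pck1 in liver, was at 21.7, 17.05 and 48.1 CPM (log2 fold change 1.31). Hnf4a, the most abundant of these factors per length, was at 369, 308 and 203 CPM. For 9 tested glycogen genes, 2 were below both others in C and 5 above both, with Pygb at a log2 fold change of −1.12. For 8 pentose phosphate genes, 5 were below both and 2 above both. Among these H6pd was at 92.1, 67.5 and 24.4 CPM (log2 fold change −1.71).

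Between A and B, which the labels place in the same analysis, 6 of the 9 genes were lower in B and 3 higher. The median log2 ratio of B to A was −0.28, beside −0.015 over the 11989 genes that had 10 or more counts in each of them, of which 51.4% were lower in B. Pklr, Tkfc, G6pc and Khk were lower in B by 1.02, 0.87, 0.68 and 0.59 on the log2 scale, and Gpi1 and Pfkl each by 0.28, less than the median absolute difference of 0.32 over those genes. Fbp1, Mlxipl and Pck1 were higher in B by 0.35, 0.34 and 0.22. Of 19 tested enterocyte markers, 18 were lower in B, with a median of −0.49, and all 7 Paneth markers were higher, with a median of 0.48.

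**Figure D4:**
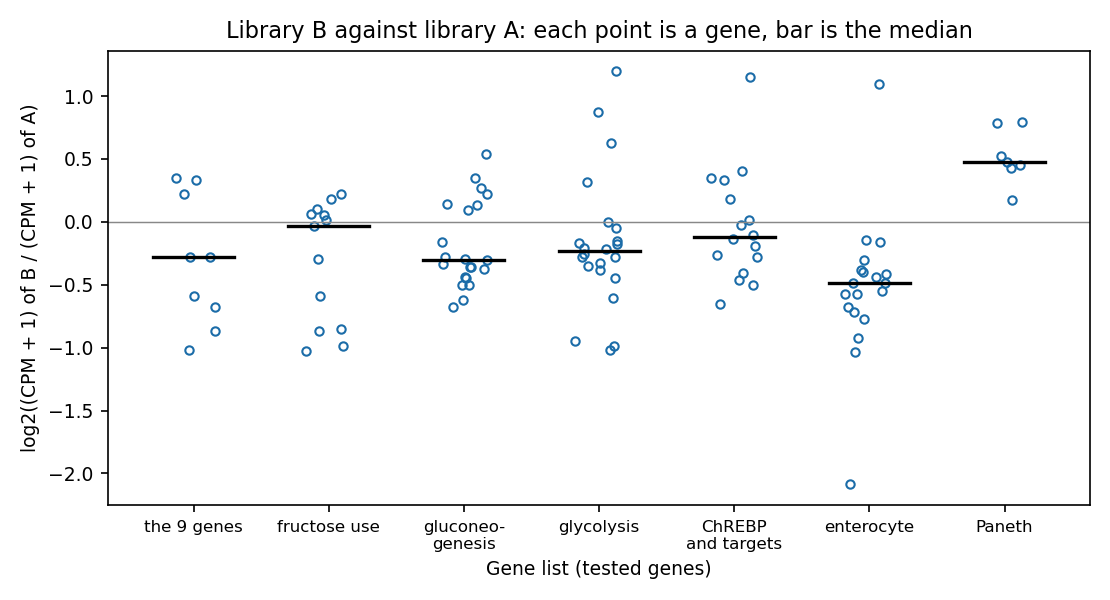
Log2 ratio of library B to library A, with 1 CPM added, for each tested gene of 7 lists, with the median as a bar. The 9 genes have a median of −0.28, the enterocyte markers lie mostly below 0 and the Paneth markers all above it.

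Set against the enterocyte marker sum in CPM, Khk was nearly constant at 2.82%, 2.70% and 2.85% of that sum in A, B and C. This constancy holds for CPM sums only. Per kilobase the enterocyte sum was 4603, 3217 and 5195, highest in C, while Khk was 138, 91.6 and 117, highest in A. The shares that follow are also of the CPM sum. Pfkl was at 6.41%, 7.60% and 7.33%. Tkfc was at 4.20%, 3.31% and 2.67% and Pklr at 2.71%, 1.92% and 2.15%, so both remained highest in A. Mlxipl was at 1.31%, 2.39% and 1.21%, highest in B. Fbp1 was at 0.141%, 0.265% and 0.226% and Pck1 at 0.0739%, 0.127% and 0.0230%, so for these and Mlxipl the gap from A to B was wider than in CPM. G6pc was at 0.232% and 0.203% in A and B, closer together than its CPM, and at 0.000534% in C. Gpi1 was at 15.5%, 18.4% and 7.20%, with C lowest. All 9 genes summed to 31.3% ± 6.88 of the enterocyte sum (SD, n = 3). How far enterocyte content accounts for these levels was not tested.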

How the data were processed

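The authors isolated RNA from sorted IEC, made SMART-Seq2 libraries, trimmed with Trimmomatic 0.39, quantified with Salmon 0.14.1 on Ensembl transcripts of GRCm38.p6 and summarised per gene with tximport. What they deposited are estimated counts in whole numbers, used without rounding. Symbols, lengths and coordinates came from GENCODE M21 (GRCm38), which named 35436 of 35824 genes.

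CPM used TMM factors from edgeR 4.0.16 (R 4.3.3). The edgeR quasi-likelihood test set C against the mean of A and B for the 13604 genes that filterByExpr retained, with Benjamini-Hochberg adjustment over these and a threshold of 0.1. Lengths are those of the longest basic protein-coding transcript. Means have the SD over libraries, which the labels call biological replicates. Nothing states that they came from separate mice, so p-values reflect only library-to-library spread, which may be technical. Intervals (95%, exact Poisson) and floors of 3 counts (0.105 to 0.166 CPM) cover counting error only, since reads carry no molecular identifiers. On simulated counts the comparison missed most of the smaller built-in changes, so a gene that was not called may still differ. The 9 genes and all lists were chosen with earlier results of these data known. The named genes were the 9, their isoenzymes and partners, the 3 most abundant of each list per length, up to 3 called per direction, and defining markers. Genes outside this rule (Glyctk, Pygb, lipogenic targets, overlapping genes and further cell type markers) were named after their values were seen. Alternatives were other scalings, filters, lengths, pseudocounts and marker lists, a threshold of 0.05, DESeq2 1.42.0, removal of length or GC trends by loess, and leaving out each library. Promoters were read from RefSeq windows. A few of these genes are not reported here. IEC ONLY libraries were not analysed here.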

Additional observations from a re-analysis of the deposited data

How the results depend on the processing

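Of 201 values recomputed under an alternative, 180 kept their direction, call or size. Some of these could not have changed. A mean without 1 library was counted as kept if it moved by less than the SD of the 3 libraries, which always holds. A stricter threshold likewise could not change a gene that was not called. The count of 180 is therefore not a measure of robustness. G6pc was called lower in C wherever it was tested, with adjusted p from 2.07e-11 (edgeR, no filter on low counts) to 0.0245 (edgeR, DESeq2 size factors), but a filter of at least 10 counts in every library drops it. With 2 of the 9 genes called in the reported comparison, 1 was called at a threshold of 0.05, 1 with the GC trend removed and 1 under that filter, where it was Gpi1. The log2 fold change of Gpi1 lay between −1.24 and −1.08 under the refits with all 3 libraries, and at −1.08 against B alone and −1.36 against A alone. Of the genes in the pathway lists, 11 were called in the reported comparison, 5 at 0.05, 21 by the DESeq2 Wald test and 23 without a filter. Over all genes the counts were 898, 276 and 1618 of 13604 tested, and 2402 of 17457 tested without a filter. The share called in the lists was not compared with the share over all genes. These counts therefore do not show whether the lists differ from all genes.

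Some uncalled fold changes of C turned sign. With the length trend removed Khk was at −0.21 and Fbp1 at −0.022, and with the GC trend removed Pklr was at 0.0057. Against 1 library at a time, C differed by −0.24 to 0.36 for Khk, −0.055 to 0.23 for Pfkl and −0.58 to 0.44 for Pklr, so the sign for these rests on whether A or B is the comparator. The cause was not tested.

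In library A alone 5 of 9 ranks per length were kept. The 9 genes came to 38.9% of the enterocyte sum without Alpi and to 17.5% with sums per kilobase, against 31.3%. Shares of raw counts in place of counts per kilobase gave 5.43% for Pck1 and 39.5% for Mlxipl, so Mlxip then held the larger share. No paired analysis was possible because the libraries form 1 group. With 1 residual degree of freedom, a gene that was not called, such as Pck1, may still differ.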
